A study of Schizosaccharomyces pombe with 6 samples.

Results

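Nuclear transfer RNA (tRNA) features were followed in Ago1-associated small RNA of fission yeast, Schizosaccharomyces pombe. The members were all count-table rows whose ID contained TRNA and did not start with SPMIT, the prefix of the mitochondrial genome; they were grouped by the amino acid and the chromosome letter in the ID. The rule found 171 members among 6878 feature IDs, 68 on chromosome II, 56 on chromosome I and 47 on chromosome III, for 20 amino acids. There were 3 libraries from cells 24h after nitrogen was withdrawn, set against 3 libraries at 0h, labelled as the control. Both groups were labelled as the wild-type strain 975 h+, grown in EMM minimal medium with added adenine, histidine, leucine, lysine and uracil at 32 °C. Ago1 was captured with anti-FLAG beads and its RNA was size-selected to 20 to 30 nucleotides; no FLAG-tagged Ago1 allele appears in the labels. Nothing in the labels said that replicates came from separate cultures, so p-values measure only the spread between these libraries, which may be technical.

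Nuclear tRNA genes are transcribed by RNA polymerase III as precursors with a 5′ leader and a 3′ trailer. RNase P and tRNase Z trim the ends, a CCA tail is added, any intron is spliced out, and a tRNA ligase charges the tRNA with its amino acid. In fission yeast, groups of tRNA genes also flank the pericentromeric repeats, where they are known as heterochromatin boundaries, and Ago1 carries the Dicer-made small RNAs of those repeats.

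The libraries held 54393, 249986 and 758789 assigned reads at 24h and 48040, 112578 and 145861 at 0h. Of the aligned reads in each library, 90.3 to 96.4% had been set aside by HTSeq for low mapping quality, as is done with reads that fit several places equally well. As a check of the labels, reads were looked up on ste11, the switch gene of sexual differentiation, and mei2, a meiosis regulator. For ste11 there were 881, 1015 and 754 scaled counts per 1000000 assigned reads (CPM) at 24h against 30.1, 31.7 and 68.2 at 0h. For mei2 there were 1314, 1226 and 1150 CPM at 24h against 30.1, 84.5 and 34.1 at 0h. These reads were Ago1-associated small RNA, not mRNA levels. Both genes were under the low-count filter given below in every 0h library. CPM were scaled by TMM, edgeR's trimmed-mean factor. Reads carry no molecular identifiers.

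The feature that held most reads, the glutamine tRNA SPBTRNAGLN.01, is printed with its identical copy SPBTRNAGLN.03 because no letter inside the tRNA tells them apart. Sequences are from RefSeq assembly ASM294v3 and were found by ID; the counts were made on the older build ASM294v2. In this pair the tRNA is in lower case and the 20 bases on each side are in capitals.
SPBTRNAGLN.01: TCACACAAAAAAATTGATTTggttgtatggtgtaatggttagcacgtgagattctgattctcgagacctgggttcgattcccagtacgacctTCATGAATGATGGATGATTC
SPBTRNAGLN.03: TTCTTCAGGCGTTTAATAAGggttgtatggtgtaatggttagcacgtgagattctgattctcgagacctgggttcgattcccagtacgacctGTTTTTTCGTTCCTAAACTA

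The remaining sequences are near-identical features whose reads took different courses, shown as spliced tRNA with the differing positions in capitals. The first set is the glycine features with anticodon TCC.
SPBTRNAGLY.05: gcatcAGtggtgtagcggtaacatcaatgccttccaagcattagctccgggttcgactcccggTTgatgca
SPBTRNAGLY.04: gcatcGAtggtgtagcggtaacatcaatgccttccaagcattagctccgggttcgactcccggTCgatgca
SPCTRNAGLY.12: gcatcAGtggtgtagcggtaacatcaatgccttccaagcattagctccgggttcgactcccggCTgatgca
Next are the tyrosine pair with anticodon GTA and the threonine pair with anticodon TGT.
SPBTRNATYR.03: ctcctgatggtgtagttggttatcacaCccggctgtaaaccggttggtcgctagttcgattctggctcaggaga
SPBTRNATYR.04: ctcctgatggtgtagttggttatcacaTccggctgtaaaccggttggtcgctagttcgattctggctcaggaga
SPCTRNATHR.10: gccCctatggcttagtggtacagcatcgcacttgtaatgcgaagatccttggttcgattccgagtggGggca
SPBTRNATHR.06: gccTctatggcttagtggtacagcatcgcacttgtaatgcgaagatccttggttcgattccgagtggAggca
Positions are counted from 1 at the 5′ end of the spliced tRNA, and the first letter of a substitution is the base of the second feature named. SPBTRNAGLY.05 differed from SPBTRNAGLY.04 by G6A, A7G and C65T, and SPCTRNAGLY.12 differed from SPBTRNAGLY.05 by T64C. SPBTRNATYR.04 differed from SPBTRNATYR.03 by C28T. SPBTRNATHR.06 differed from SPCTRNATHR.10 by C4T and G68A.

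Across the 171 members the spliced length ran from 71 to 86 bases, and there were 64 distinct spliced sequences. A spliced sequence was shared by up to 9 members, and 32 members had a sequence of their own. An intron was annotated in 44 members. The anticodon read from the sequence matched the amino acid of the ID in 168 members; the 3 exceptions were SPBTRNAASP.05, SPBTRNALYS.07 and SPBTRNASER.06, named after their sequences were seen. No member overlapped another feature on its own strand, and 2 overlapped one on the opposite strand. Of 576 features wholly inside one on the opposite strand, 492 had reads, which HTSeq does not give without strand where it leaves out reads that fall on more than 1 feature. Neither that setting nor the orientation is given in the sources used here, so a read could be sense or antisense to its tRNA.

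Whether a member had reads went with whether it held sequence found once in the genome. A 25-base stretch found once in the genome lay inside 37 members, introns included, and 36 of these had reads. Another 95 members had such a stretch only across the 5′ or 3′ edge, so that part of it lay in the flanking sequence, and 77 of these had reads. The 39 members with no unique stretch had 0 reads in every library. The edge class held 39951 of the 60437 nuclear tRNA reads, or 66.1%, and 21.8% of the reads that remained without SPBTRNAGLN.01. Stretches of 20 or 30 bases, tried after the data were seen, gave the inside class 33.8% and 33.9% of reads, against 33.9% with 25 bases. A match between stretch and genome was exact, and how many mismatches the aligner allowed is not given in the sources used here, so these classes describe the sequence and not each read.

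**Figure D1:**
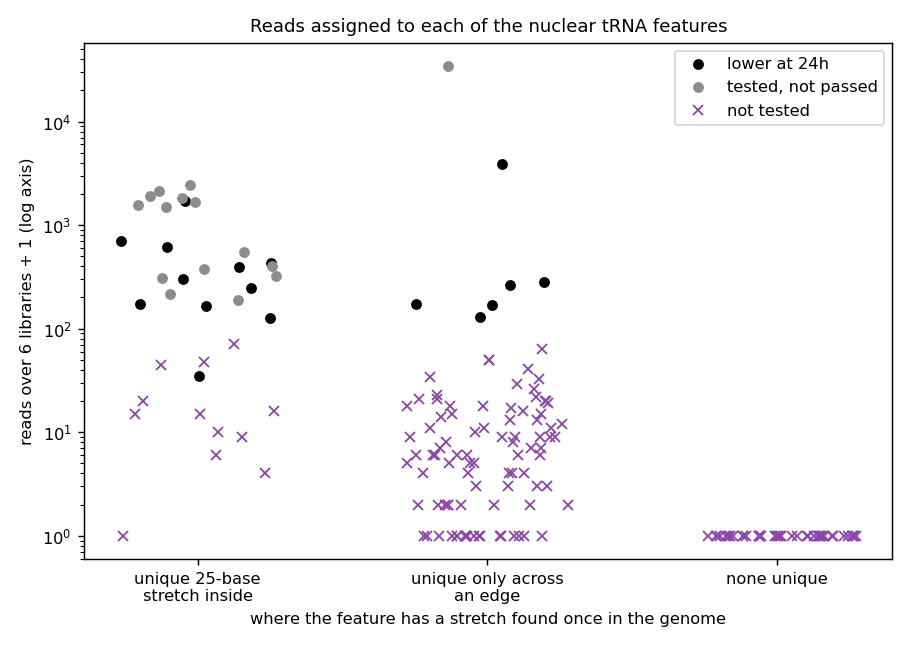
Reads summed over the 6 libraries plus 1 (log axis) for each of the 171 nuclear tRNA features, by where the feature has a 25-base stretch found once in the genome; each point is a feature, black for lower at 24h, grey for tested and not passed, a cross for not tested. All 39 features with no unique stretch sit at 0 reads, and SPBTRNAGLN.01 stands highest with 34235 reads in the edge class.

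Only part of the members could be tested. Reads were found for 113 members and none for 58. The filter on low counts, 77.4 unscaled CPM in at least 3 libraries, left 32 members, which held all but 1.76% of the nuclear tRNA reads. Of these 32, 30 were over the filter in all 3 libraries at 0h and 22 in all 3 at 24h. The 10 that passed without every 24h library included 6 of the 17 called lower: SPBTRNATYR.03 and SPCTRNAGLY.12, with 0 of 3 24h libraries over the filter, and SPATRNACYS.02, SPATRNALEU.01, SPBTRNATYR.04 and SPCTRNALEU.11, with 1 of 3. SPCTRNALEU.11 reached the needed 3 libraries with 2 at 0h and 1 at 24h. The other 5 entered the test through the 0h libraries, in which they were high, so their p-values describe members chosen in part for that difference. The counts over the tested members likewise carry no test of the family. A sequence of its own was held by 23 of the tested members, and 9 of the 139 multi-copy members were tested.

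Among the tested members, 17 of 32 were lower at 24h (53.1%, against 12.8% of all 1716 tested features) and 0 were higher, against 13.1% of all tested features (edgeR quasi-likelihood, Benjamini-Hochberg adjusted p under 0.05 over all tested features); counted per aligned read, 1 was lower and 14 were higher. The other 15 did not pass. At an unadjusted p under 0.05 there were 22, against 38.9% of all tested features, and DESeq2 called 19 lower and 0 higher, against 14.0% lower and 14.7% higher of all tested features. The median log2 change of the 32 was -1.84, against -0.02 for all tested features, and 31 of the 32 values were negative. Under TMM, 16 of 32 were lower in every 24h library, with no overlap, against 19.7% of all tested features, and 0 were higher in every 24h library, against 24.3%. Whether fewer cells held a fragment or each cell held less cannot be told apart.

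Direction rested on the scaling. TMM centres the tested features near 0. With assigned totals the median of all tested features was 0.69 and that of the 32 tRNA features -1.18, with 10 lower and 0 higher, against 5.54% and 33.1% of all tested features. With all aligned reads the median of all tested features was 3.55 and that of the 32 tRNA features 1.40, with 1 lower, against 0.233% of all tested features, and 14 higher, against 93.9%. The tRNA median lay below the median of all tested features in each of these scalings, while its sign changed with aligned reads. A change of scaling moves the log2 change of every feature by a similar amount. The order of these medians was therefore nearly fixed in advance, and its recurrence across scalings adds no support. The 25 mitochondrial tRNA features gave a TMM median of -0.57 over the 23 tested, with 0 lower and 0 higher by edgeR, 1 at an unadjusted p under 0.05, and 1 lower by DESeq2; counted per aligned read, 20 were higher and 0 lower. Without the third 24h library 6 of the 23 were lower (12.7% of all tested features) and the median was -1.35, and without the third 0h library the median was 0.17, so the mitochondrial values rested on single libraries. The difference between nuclear and mitochondrial tRNA features was not tested.

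**Figure D2:**
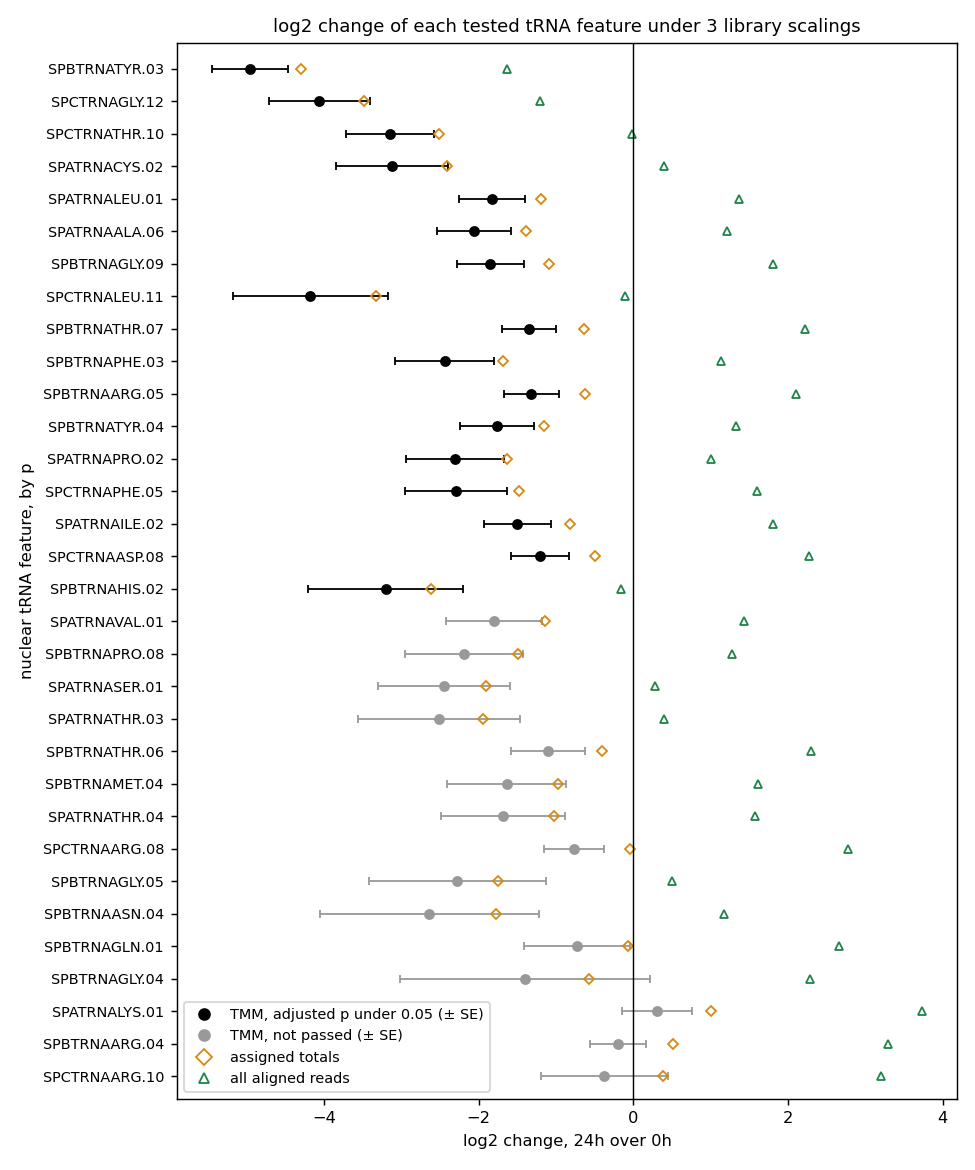
The log2 change (24h over 0h) of each of the 32 tested tRNA features, ordered by p, with the TMM value and its standard error as a filled point (black past the test, grey not passed), the value with assigned totals as a diamond and the value with all aligned reads as a triangle. TMM values sit left of 0 for 31 of the 32 features, and the triangles sit right of 0 for most of them.

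The sum over all 171 members gave a less even picture. Nuclear tRNA made up 5.60%, 3.28% and 3.70% of assigned reads at 24h against 3.80%, 5.70% and 8.83% at 0h, or 4.19 ± 1.23% at 24h and 6.11 ± 2.54% at 0h (± is the SD over 3 libraries here and throughout). The groups overlapped: the first 24h library was above the first 0h library and close to the second. Wilson 95% intervals, which cover counting error only, were narrow beside that spread, from 5.41 to 5.79% in the first 24h library. Without SPBTRNAGLN.01 the share was 1.73%, 1.12% and 1.51% at 24h against 2.52%, 2.12% and 5.07% at 0h, lower in every 24h library. Set against assigned reads without 5 pericentromeric noncoding RNAs (SPNCRNA.231, SPNCRNA.232, SPNCRNA.234, SPNCRNA.359 and SPNCRNA.373), the nuclear tRNA share was 4.32 ± 1.32% at 24h and 10.2 ± 3.08% at 0h, lower in every 24h library. That step raised the 0h shares to 7.51%, 9.59% and 13.6% but left the 24h shares at 5.81%, 3.31% and 3.84%. The separation of the groups here therefore rests on reads of those RNAs taken out mainly at 0h. Per 1000000 aligned reads it was 1489 ± 567 at 24h and 335 ± 176 at 0h, 4.45-fold and higher in every 24h library. Members with a read numbered 44, 80 and 93 at 24h against 71, 90 and 92 at 0h, with the shallow first libraries lowest in both groups.

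Glutamine tRNA meant a single feature. SPBTRNAGLN.01, with anticodon CTG, had 2102, 5417 and 16591 reads at 24h against 612, 4028 and 5485 at 0h, which was 56.6% of all nuclear tRNA reads. Its share of nuclear tRNA reads was 69.1%, 66.0% and 59.1% at 24h against 33.5%, 62.8% and 42.6% at 0h, and the third 24h library lay below the second 0h library. Its identical copy SPBTRNAGLN.03 had 0, 2 and 3 reads at 24h and 0, 0 and 0 at 0h, although both hold the same tRNA and have unique stretches across their edges alone. In CPM, SPBTRNAGLN.01 had 31389, 13640 and 20004 at 24h against 18431, 42529 and 46749 at 0h. The groups overlapped, with a log2 change of -0.73 (SE 0.69, edgeR adjusted p = 0.462). Per kilobase of spliced tRNA, its mean CPM over the 6 libraries was 399865, the highest of the tested members, against 58003 for the next, SPBTRNAHIS.02.

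Tyrosine tRNA held 2 tested members. SPBTRNATYR.03 had 3, 3 and 17 reads at 24h against 18, 54 and 72 at 0h, or 44.8, 7.55 and 20.5 CPM at 24h against 542, 570 and 614 at 0h. Every 24h library lay far below every 0h library, and the log2 change was -4.95 (SE 0.49, edgeR adjusted p = 0.000494). It passed the filter only through its 3 0h libraries, so it had to be high there to be tested at all. The feature is 1 of 3 identical copies with no unique stretch inside, and it stands at the end of a run of 9 tRNA genes beside SPNCRNA.373, a pericentromeric noncoding RNA. SPNCRNA.373 had 1329, 559 and 2481 CPM at 24h against 39874, 45538 and 30572 at 0h, lower in every 24h library, with a log2 change of -4.73 (SE 0.80, edgeR adjusted p = 0.00301); its part in the tRNA result was not tested. SPBTRNATYR.04, alone with its sequence, fell to 62.9 ± 39.8 CPM at 24h against 256 ± 97.4 at 0h, with a log2 change of -1.76 (edgeR adjusted p = 0.0201). The ratio of SPBTRNATYR.04 to SPBTRNATYR.03 reads within a library was 1.00, 4.67 and 5.29 at 24h against 0.667, 0.296 and 0.389 at 0h, with no overlap. Since SPBTRNATYR.03 was tested for being high at 0h, this ratio repeats that choice and adds no support. All unique 25-base stretches of SPBTRNATYR.03 cross its 5′ edge, on the side of SPNCRNA.373, while SPBTRNATYR.04 has 42 inside. The ratio may therefore set reads across a flank against reads inside a tRNA.

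Glycine tRNA held a feature near 0 and a feature that was common. SPCTRNAGLY.12 had 0, 1 and 7 reads at 24h against 4, 10 and 12 at 0h, or 0, 2.52 and 8.44 CPM at 24h against 120, 106 and 102 at 0h. No 24h library came near the 0h libraries, and the log2 change was -4.06 (SE 0.66, edgeR adjusted p = 0.00247), on 34 reads in all. It too passed the filter only through its 3 0h libraries. SPBTRNAGLY.09, the only glycine member with anticodon CCC, had 582, 906 and 707 CPM at 24h against 1807, 2787 and 3315 at 0h. It was lower in every 24h library, with a log2 change of -1.85 (SE 0.44, edgeR adjusted p = 0.0119). That call was lost without the first 24h library (adjusted p = 0.0643) or the second 0h library (adjusted p = 0.0547), and with assigned totals (adjusted p = 0.103).

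Threonine tRNA held 5 tested members. SPCTRNATHR.10, with anticodon TGT, had 89.6, 50.4 and 174 CPM at 24h against 813, 507 and 1560 at 0h. It was lower in every 24h library, with a log2 change of -3.15 (SE 0.57, edgeR adjusted p = 0.00367). SPBTRNATHR.06, which shares the anticodon, had 2120, 836 and 1399 CPM at 24h against 3132, 2281 and 3895 at 0h. It too was lower in every 24h library, but its log2 change of -1.10 did not pass (SE 0.48, edgeR adjusted p = 0.118). Within a library, SPBTRNATHR.06 had 23.7, 16.6 and 8.06 times the reads of SPCTRNATHR.10 at 24h against 3.85, 4.50 and 2.50 times at 0h, without overlap. SPBTRNATHR.07, with anticodon AGT, had 74.7, 93.2 and 90.4 CPM at 24h against 211, 306 and 162 at 0h, lower in every 24h library. Its log2 change was -1.35 (SE 0.35, edgeR adjusted p = 0.0166), lost without the second 0h library (adjusted p = 0.132) and with assigned totals (adjusted p = 0.245). SPATRNATHR.03 (386 ± 355 CPM at 24h and 2231 ± 3242 at 0h, log2 change -2.51) and SPATRNATHR.04 (680 ± 319 at 24h and 2180 ± 2731 at 0h, log2 change -1.68) did not pass, and both were positive without the third 0h library, at 0.118 and 0.085.

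Single-copy cysteine, leucine and alanine features fell. SPATRNACYS.02 had 105, 30.2 and 42.2 CPM at 24h against 120, 158 and 852 at 0h, lower in every 24h library, with the third 0h library far above the others. Its log2 change was -3.12 (SE 0.72, edgeR adjusted p = 0.0107) and was -1.73 without that library (adjusted p = 0.0624). SPATRNALEU.01, with anticodon CAG and an intron, had 44.8, 32.7 and 77.2 CPM at 24h against 271, 169 and 188 at 0h, and its log2 change was -1.83 (SE 0.42, edgeR adjusted p = 0.0107). SPATRNAALA.06, the only alanine member with anticodon CGC, had 299, 116 and 363 CPM at 24h against 1325, 771 and 1142 at 0h, and its log2 change was -2.06 (SE 0.48, edgeR adjusted p = 0.0111). Both were lower in every 24h library and passed whichever library was left out, but SPATRNALEU.01 had entered the test through its 0h libraries.

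SPCTRNALEU.11 and SPBTRNAPHE.03 passed with groups that overlapped. SPCTRNALEU.11, with anticodon AAG and 1 of 3 identical copies, had 0, 57.9 and 6.03 CPM at 24h against 572, 802 and 51.1 at 0h; the third 0h library lay below the second 24h library. Its log2 change was -4.18 (SE 1.00, edgeR adjusted p = 0.0131), and adjusted p was 0.125 with assigned totals, 0.0999 without the first 24h library, 0.0786 without the third, 0.0677 without the first 0h library and 0.166 without the second. SPBTRNAPHE.03, with anticodon GAA, had 134, 88.1 and 74.8 CPM at 24h against 301, 127 and 1014 at 0h. Its log2 change was -2.44 (SE 0.64, edgeR adjusted p = 0.0183) and was -1.14 without the third 0h library (adjusted p = 0.140); leaving out any 24h library also ended the call, with adjusted p from 0.0515 to 0.0646.

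Histidine tRNA was carried by 1 feature and by 1 library. SPBTRNAHIS.02, with anticodon GTG and 1 of 4 identical copies, had 642, 395 and 1409 CPM at 24h against 964, 2555 and 19092 at 0h. The third 24h library was above the first 0h library, and the third 0h library stood far above the rest. Its log2 change was -3.20 (SE 1.00, edgeR adjusted p = 0.0363) and was -1.18 without the third 0h library (adjusted p = 0.215). The call was also lost without the first 24h library (adjusted p = 0.148), the second 24h library (0.0929) or the second 0h library (0.0539). Its identical copy SPBTRNAHIS.01 had 1, 2 and 8 reads at 24h and 8, 11 and 10 at 0h, where SPBTRNAHIS.02 had 43, 157 and 1169 at 24h and 32, 242 and 2240 at 0h.

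The other 5 falls were smaller or varied more. SPBTRNAARG.05, with anticodon CCT, averaged 146 ± 39.9 CPM at 24h and 383 ± 89.9 at 0h (log2 change -1.32). SPATRNAPRO.02, with anticodon CGG, averaged 329 ± 221 CPM at 24h and 1590 ± 782 at 0h (log2 change -2.30). SPCTRNAPHE.05, with anticodon GAA, averaged 111 ± 62.6 CPM at 24h and 587 ± 419 at 0h (log2 change -2.29). SPATRNAILE.02, with anticodon TAT, averaged 176 ± 71.9 CPM at 24h and 510 ± 211 at 0h (log2 change -1.50), and SPCTRNAASP.08, with anticodon GTC, averaged 161 ± 40.4 CPM at 24h and 379 ± 142 at 0h (log2 change -1.21). Adjusted p ran up to 0.0363 over the 17 falls by edgeR. Of the 17, 13 were lower in every 24h library, and 5 passed in every fit without 1 library in which they were tested: SPBTRNATYR.03, SPCTRNAGLY.12, SPCTRNATHR.10, SPATRNALEU.01 and SPATRNAALA.06. Of these 5, SPCTRNATHR.10 and SPATRNAALA.06 were over the filter in all 6 libraries; the other 3 had passed it through 0h, and SPCTRNAGLY.12 was tested in 3 of those 6 fits, so their passing again is no sign of stability. SPBTRNAARG.05 lost the call without the first or second 24h library or the second 0h library, with adjusted p from 0.0605 to 0.0671. SPBTRNATYR.04 lost it without the first 0h library or the third (0.0657 and 0.0590), and SPATRNAPRO.02 without the first or second 0h library (0.0703 and 0.0531). SPCTRNAPHE.05 lost it without the first 24h library or the third, or the first or second 0h library, with adjusted p from 0.0743 to 0.190. SPATRNAILE.02 lost it without the first or second 24h library or the first 0h library or the third (0.0696 to 0.111), and SPCTRNAASP.08 without the first or second library of either group (0.0594 to 0.113). Assigned totals ended the calls of SPBTRNAARG.05, SPCTRNAPHE.05, SPATRNAILE.02 and SPCTRNAASP.08, with adjusted p from 0.128 to 0.362.

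**Figure D3:**
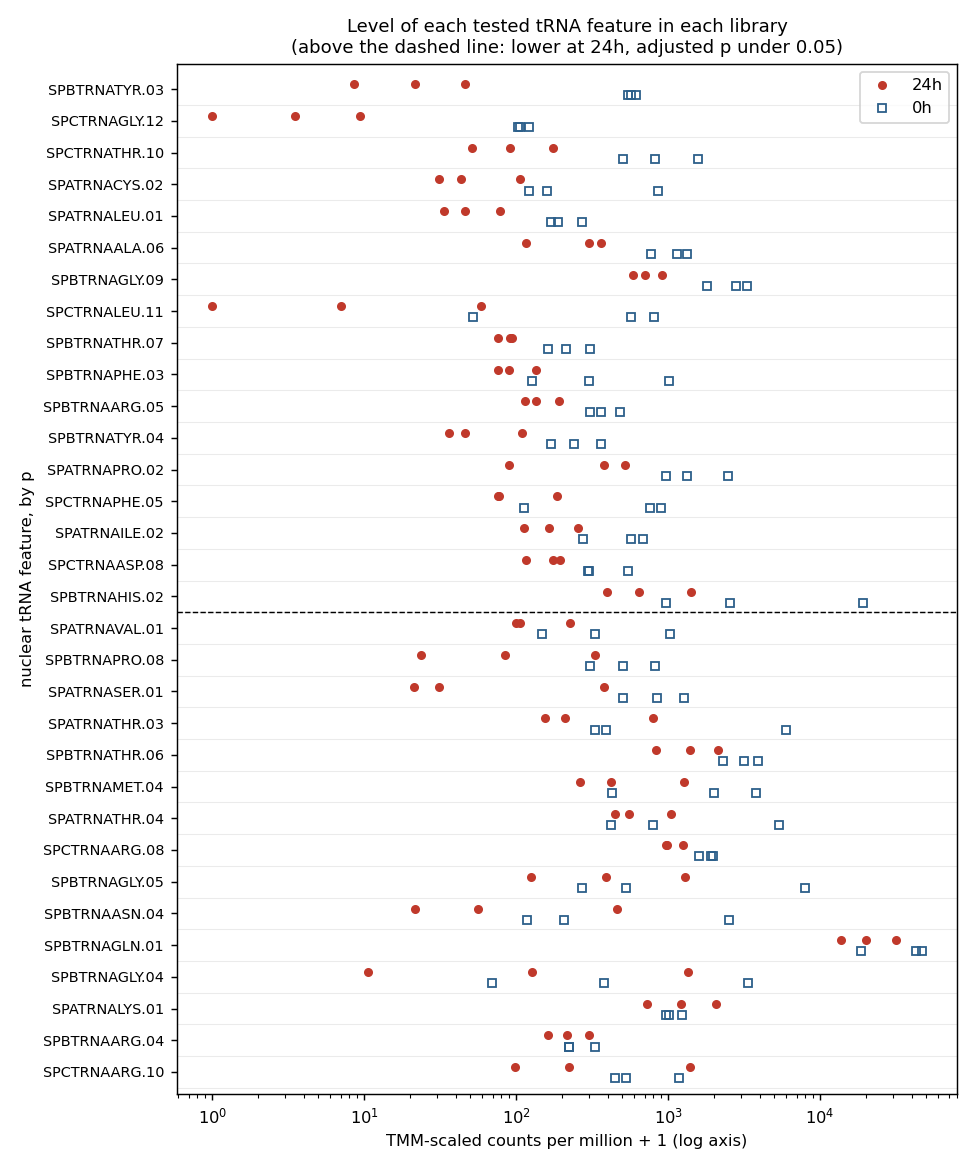
TMM-scaled CPM plus 1 (log axis) of each of the 32 tested tRNA features in each library, ordered by p, with 24h libraries as filled red points above 0h libraries as open blue squares. The 17 features over the dashed line were lower at 24h by edgeR; 13 of them have no overlap between the groups, and SPBTRNAHIS.02 has 1 library at 0h far above the others.

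Valine, proline and serine features came next after the threshold. SPATRNAVAL.01 averaged 142 ± 71.0 CPM at 24h and 503 ± 466 at 0h (log2 change -1.80, edgeR adjusted p = 0.0535), SPBTRNAPRO.08 145 ± 162 at 24h and 541 ± 256 at 0h (log2 change -2.19, adjusted p = 0.0546) and SPATRNASER.01 143 ± 205 at 24h and 873 ± 382 at 0h (log2 change -2.45, adjusted p = 0.0557). The methionine feature SPBTRNAMET.04 averaged 649 ± 542 CPM at 24h and 2072 ± 1686 at 0h (log2 change -1.64), and the asparagine feature SPBTRNAASN.04 averaged 180 ± 246 at 24h and 950 ± 1369 at 0h (log2 change -2.64); neither passed. Their 0h libraries ran from 426 to 3795 CPM and from 116 to 2530 CPM. Single libraries moved these values. SPATRNAVAL.01 was -0.58 without the third 0h library, and passed without the third 24h library (-2.41, adjusted p = 0.0391) or the second 0h library (-2.25, adjusted p = 0.0252). SPBTRNAPRO.08 passed without the first 24h library (-3.17, adjusted p = 0.00559). In that fit it was over the filter in the third 24h library and not in the second. SPBTRNAPRO.08 then entered through 0h, where it was high, so the same limit holds as for SPATRNASER.01. SPATRNASER.01 passed without the third 24h library (-5.27, adjusted p = 0.000863). The third was the only 24h library in which SPATRNASER.01 was over the filter. Without it SPATRNASER.01 entered the test only through 0h, where it was high, so that p-value describes a member chosen in part for the difference. SPBTRNAMET.04 was -0.89 without the first 0h library and passed without the third 24h library (-2.67, adjusted p = 0.0322) or the third 0h library (-2.18, adjusted p = 0.0487). SPBTRNAASN.04 was -0.43 without the first 0h library and -4.50 without the first 24h library, and passed in neither fit.

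The other arginine features and the lysine feature had log2 changes nearer 0. SPCTRNAARG.08 had 1062 ± 156 CPM at 24h and 1814 ± 200 at 0h (log2 change -0.77, SE 0.38), lower in every 24h library but not past the test (edgeR adjusted p = 0.166). SPBTRNAARG.04, with the same anticodon TCT, had 225 ± 69.3 CPM at 24h and 258 ± 63.3 at 0h (log2 change -0.20). SPCTRNAARG.10, with anticodon TCG, had 569 ± 712 CPM at 24h and 715 ± 400 at 0h (log2 change -0.37). SPATRNALYS.01, with anticodon CTT, had 2061, 720 and 1207 CPM at 24h against 1235, 1014 and 963 at 0h. Its groups overlapped, and its log2 change of 0.31 (SE 0.46, edgeR adjusted p = 0.653) was the only one above 0, turning to -0.085 without the first 24h library.

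The glycine pair SPBTRNAGLY.05 and SPBTRNAGLY.04 varied more between libraries than between groups. SPBTRNAGLY.05 had 26, 49 and 1073 reads at 24h against 9, 50 and 936 at 0h. SPBTRNAGLY.04 had 91, 50 and 8 reads at 24h against 112, 36 and 8 at 0h. The ratio of the first to the second within a library was 0.286, 0.980 and 134 at 24h and 0.0804, 1.39 and 117 at 0h, so libraries with the same number were alike and the groups overlapped. In CPM, SPBTRNAGLY.05 averaged 602 ± 614 at 24h and 2926 ± 4377 at 0h (log2 change -2.28, SE 1.14, edgeR adjusted p = 0.168), and SPBTRNAGLY.04 averaged 498 ± 748 at 24h and 1274 ± 1825 at 0h (log2 change -1.40, SE 1.61, edgeR adjusted p = 0.556). What the number of a library stood for was not given in the labels.

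**Figure D4:**
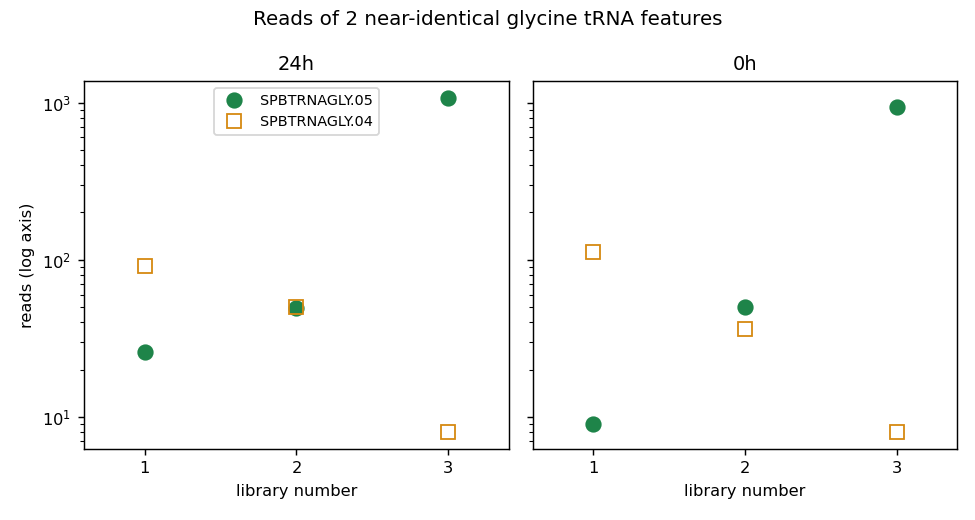
Reads (log axis) of SPBTRNAGLY.05 (filled green) and SPBTRNAGLY.04 (open orange) in each library, 24h left and 0h right, by library number. In both groups SPBTRNAGLY.04 leads in library 1 and SPBTRNAGLY.05 leads in library 3, with 1073 reads at 24h and 936 at 0h.

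Of the 139 members not tested, 81 had a read and 58 had none. Their highest total was 70 reads, and 48 had 1 to 10. The highest were SPATRNATYR.01, with 4, 6 and 31 reads at 24h against 4, 3 and 22 at 0h, and SPATRNAGLY.02, with 1, 6 and 41 at 24h against 0, 4 and 11 at 0h. SPATRNALYS.05 had 1, 0 and 22 reads at 24h against 7, 7 and 12 at 0h, SPCTRNAGLY.10 had 0, 2 and 12 at 24h against 3, 10 and 22 at 0h, and SPATRNASER.03 had 1, 2 and 28 at 24h against 4, 1 and 11 at 0h. In CPM, 27 of the 81 were lower in every 24h library, 0 were higher in every 24h library and 54 overlapped. The matching shares over all untested features were not taken, and most of the 81 had few reads. These counts therefore show nothing particular to the tRNA features.

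Every amino acid is represented, but not evenly. Glutamine led with 64.8 ± 5.08% of nuclear tRNA reads at 24h and 46.4 ± 14.9% at 0h; its libraries had 69.1%, 66.0% and 59.2% at 24h against 33.8%, 62.9% and 42.6% at 0h. Threonine had 6.47%, 8.20% and 10.4% at 24h against 9.21%, 6.35% and 15.5% at 0h, and glycine had 5.19%, 5.75% and 6.19% at 24h against 10.7%, 6.05% and 10.8% at 0h. Histidine had 1.45%, 1.96% and 4.22% at 24h against 2.74%, 4.04% and 17.5% at 0h, and arginine had 6.27%, 7.28% and 5.22% at 24h against 7.78%, 4.62% and 2.51% at 0h. These 5 overlapped between groups. Without the third 0h library the difference, 24h minus 0h, was -0.85 percentage points for histidine, 0.06 for arginine and 0.56 for threonine, against -5.57, 1.29 and -2.01 with all libraries.

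Lysine was the amino acid whose share was higher in every 24h library, at 3.91 ± 0.57% at 24h and 1.91 ± 0.96% at 0h. SPATRNALYS.01 alone held 95.3% of the lysine reads. In CPM its groups overlapped, and its log2 change of 0.31 did not pass. Tyrosine at 0.37 ± 0.12% at 24h and 1.32 ± 0.48% at 0h, cysteine at 0.20 ± 0.07% at 24h and 0.62 ± 0.31% at 0h, and glutamate at 0.04 ± 0.01% at 24h and 0.09 ± 0.06% at 0h were lower in every 24h library; glutamate rested on 28 reads in all. The mean shares at 24h and at 0h were 2.00% and 3.57% for methionine, 1.30% and 3.31% for proline, 0.61% and 1.76% for serine, 0.78% and 1.55% for alanine, and 0.75% and 1.56% for phenylalanine. They were 0.51% and 0.80% for valine, 0.56% and 0.70% for isoleucine, 0.54% and 0.69% for aspartate, 0.34% and 1.17% for leucine, and 0.48% and 1.87% for asparagine, all overlapping. Tryptophan had 4 reads, all in the second 0h library.

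Shares of a whole move together, so they were also taken without SPBTRNAGLN.01. Arginine was then 18.1 ± 4.69% at 24h and 9.50 ± 4.46% at 0h, and lysine 11.4 ± 3.03% at 24h and 3.63 ± 1.54% at 0h, both higher in every 24h library. Tyrosine was 1.04 ± 0.21% at 24h and 2.50 ± 0.75% at 0h, lower in every 24h library, and cysteine and glutamate then overlapped. Threonine was 23.4 ± 2.27% at 24h and 19.3 ± 6.83% at 0h and histidine 6.91 ± 2.99% at 24h and 15.2 ± 13.7% at 0h, both overlapping. No test was made of these sums, since 3 against 3 libraries cannot give an exact p below 0.1.

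**Figure D5:**
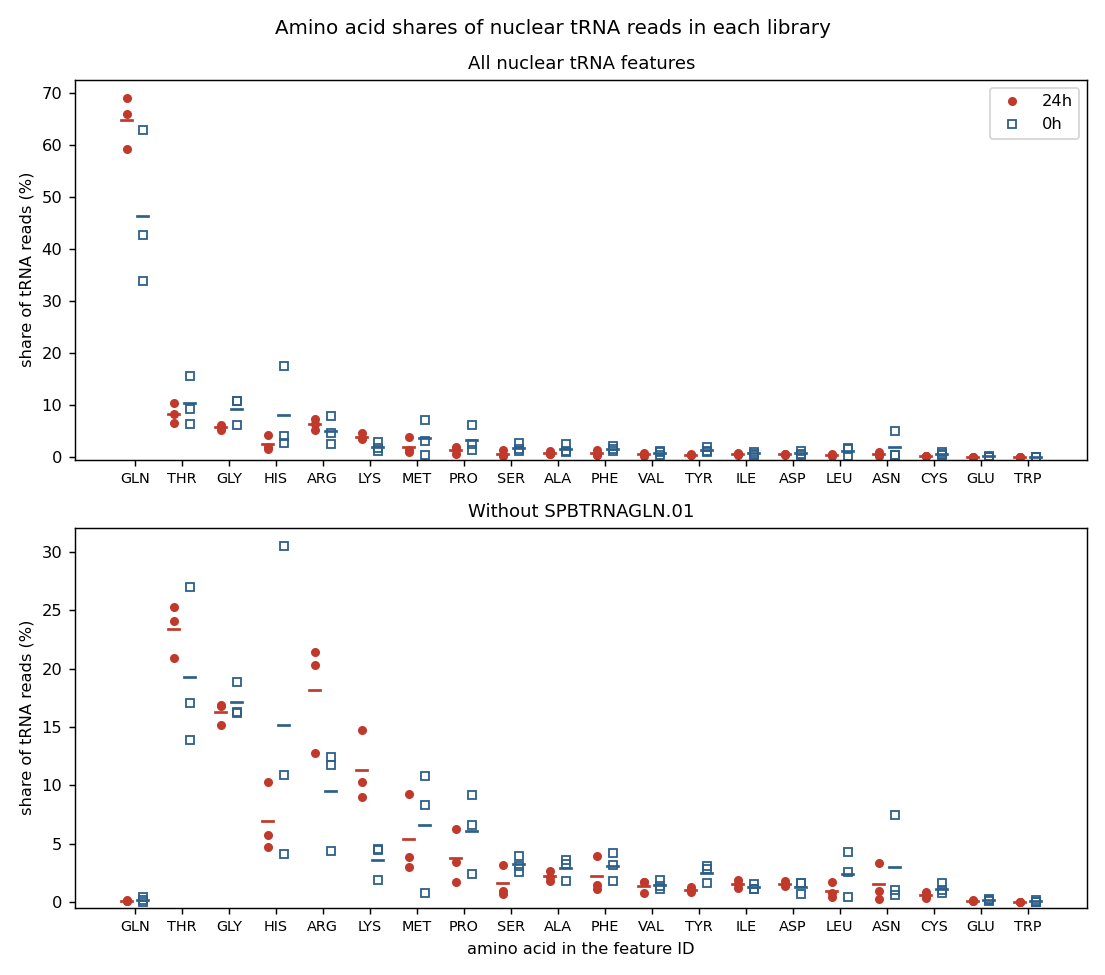
Share of nuclear tRNA reads (%) by amino acid in each library, with 24h libraries as filled red points left of 0h libraries as open blue squares and bars at the means; the upper panel has all features, the lower panel leaves out SPBTRNAGLN.01. Glutamine holds 59.2 to 69.1% at 24h above, and in the lower panel arginine and lysine are higher in every 24h library.

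By chromosome, II held 82.1% of nuclear tRNA reads at 24h and 76.5% at 0h, I held 11.3% at 24h and 14.9% at 0h, and III held 6.57% at 24h and 8.59% at 0h, all overlapping. Leaving out 1 library moved the difference, 24h minus 0h, over a range of 2.01 to 8.65 percentage points for II, -6.45 to -2.14 for I and -4.10 to 0.23 for III, which turned positive without the first 0h library. Without SPBTRNAGLN.01, chromosome II held 49.3% at 24h and 56.0% at 0h and was lower in every 24h library. Falls were called for 7 of 15 tested members on chromosome II, 5 of 10 on I and 5 of 7 on III. With an intron, 7 of 10 tested members fell, and without one 10 of 22. Of all tested features, 12.8% were lower. Each of these groups held called members that had entered the test through 0h, so the counts do not rank the groups. The differences between them were not tested. The 21 members in runs of 9 or 12 neighbouring tRNA genes had 216 reads, of which SPBTRNATYR.03 held 77.3%, and their share of nuclear tRNA reads was 0.13 ± 0.03% at 24h and 0.93 ± 0.32% at 0h, lower in every 24h library.

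The features next to the tested members were looked up as well. Of 64 neighbour places, 12 held a tested feature: 2 were lower, 2 were higher and 8 did not pass, where 12.8% of all tested features were lower and 13.1% higher. Among the 8 were SPBTRNAARG.04 and SPBTRNAGLY.05, tested members that neighbour each other. SPBP35G2.16c, beside SPBTRNAHIS.02, was lower (log2 change -1.66), as was SPNCRNA.373. SPAC57A7.08, beside SPATRNALEU.01, which fell, was higher (log2 change 1.20), and SPBC11C11.06c, beside SPBTRNAPRO.08, was higher (log2 change 1.65). With 18 reads at 0h, SPAC57A7.08 was under the filter in every 0h library and entered the test only through 24h. SPBC11C11.06c, with 19 reads at 0h, also entered through its 24h libraries, and SPBP35G2.16c through 0h. Each was high in the group that let it in, so these calls describe features chosen in part for that difference.

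Coding genes of tRNA synthesis, charging and processing were taken by the words of their annotation. Reads on them were Ago1-associated small RNA, not mRNA levels. Of 115 genes, 33 were tested, and 2 were higher, 4 were lower and 27 did not pass by edgeR, where 13.1% of all tested features were higher and 12.8% lower. Counted per aligned read, 31 were higher and 0 lower, where 93.9% of all tested features were higher. These counts are near those shares and show nothing particular to the list. Its median log2 change was -0.58, against -0.02 for all tested features. Among 19 genes of polymerase III transcription, 3 were tested. The large subunit gene rpc1 was higher, at 233 ± 19.8 CPM at 24h and 65.4 ± 26.1 at 0h (log2 change 1.76, SE 0.38, edgeR adjusted p = 0.00838), a call lost without the second 0h library (adjusted p = 0.0555). It was under the filter in every 0h library, with 17 reads there. It entered the test only through 24h, where it was high, so its p-value describes a gene chosen in part for that difference. The TFIIIC subunit gene sfc4 had 73.5 ± 17.5 CPM at 24h and 178 ± 70.1 at 0h (log2 change -1.10), and the subunit gene rpc2 had 185 ± 61.6 at 24h and 110 ± 35.2 at 0h (log2 change 0.76); neither passed.

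Among 34 tRNA ligase genes, 23 were tested, 2 were lower, where 12.8% of all tested features were, and 21 did not pass. The tryptophan ligase gene wrs1 had 46.5 ± 14.4 CPM at 24h and 141 ± 34.4 at 0h (log2 change -1.40, SE 0.38, edgeR adjusted p = 0.0201). Only the second of its 24h libraries was over the filter, so wrs1 entered the test through 0h, where it was high. The proline ligase gene SPBC24C6.03 had 85.4 ± 51.6 CPM at 24h and 265 ± 47.4 at 0h (log2 change -1.49, SE 0.41, edgeR adjusted p = 0.0207). Both calls were lost with assigned totals (adjusted p = 0.240 for wrs1 and 0.113 for SPBC24C6.03), without the first 24h library (0.0594 for wrs1 and 0.0538 for SPBC24C6.03) and without the second 0h library (0.133 for wrs1 and 0.0781 for SPBC24C6.03). That of SPBC24C6.03 was also lost without the second 24h library (0.0622) or the third 0h library (0.0603). The methionine ligase gene rar1 (log2 change -1.29) and the asparagine ligase gene nrs1 (log2 change -1.55) did not pass. Among 62 other tRNA genes, 7 were tested. The pseudouridine synthase genes pus2, at 15.6 ± 13.8 CPM at 24h and 202 ± 138 at 0h (log2 change -2.93, SE 0.56, edgeR adjusted p = 0.00449), and pus4, at 20.0 ± 10.9 at 24h and 142 ± 61.1 at 0h (log2 change -2.39, SE 0.52, edgeR adjusted p = 0.00813), were lower. Both were under the filter in every 24h library. They entered the test only through 0h, where they were high, so their p-values describe genes chosen in part for that difference. The cytidine acetyltransferase gene nat10 was higher, at 106 ± 20.0 CPM at 24h and 32.0 ± 2.00 at 0h (log2 change 1.63, SE 0.46, edgeR adjusted p = 0.0228), a call lost without the second 24h library or the second or the third 0h library (adjusted p from 0.0939 to 0.107). With 8 reads at 0h, nat10 was under the filter in every 0h library and entered the test only through 24h. The amidotransferase gene gta1 did not pass (log2 change -1.43).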

How the data were processed

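The deposited files held raw read counts, whole numbers per feature that the authors made with HTSeq. Cutadapt, Bowtie2 2.1.0, HTSeq 0.6.1 and build ASM294v2 are the tools and genome, per the submitters' processing notes, which give no options. The 5 tally lines stayed out of totals and tests. Tests used edgeR 4.0.16 in R 4.3.3 (filterByExpr with a minimum count of 10, TMM, robust quasi-likelihood fit on group, two-sided, Benjamini-Hochberg over 1716 features, threshold 0.05) and, as an alternative, DESeq2 1.42.0. The edgeR fit was checked on simulated counts, and DESeq2 was not. SE is the log2 change divided by the root of F. Sums and shares were described without a test; intervals are Wilson 95% intervals.

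IDs were matched to the RefSeq annotation of ASM294v3 for sequences, neighbours and descriptions (6714 of 6878 matched), so no coordinates are given. Unique stretches of 25 bases were sought on both strands of that genome. Members, lists and rules were chosen with earlier results of these data known. All tested members are named. Per-library values are given for the 5 highest by mean CPM and the 10 with the smallest p, and up to 4 genes with the smallest p are named per gene list. Descriptions with "tRNA ligase", also as "tRNA (Xxx) ligase", defined the ligases; "RNA polymerase III", TFIIIB or TFIIIC defined the transcription list, and other genes naming tRNA the third. Near-identical pairs, anticodons, runs and neighbours were looked at after values were seen. No 2 libraries of a group agreed within sampling noise: chi-square per degree of freedom was 7.9 or more.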

Additional observations from a re-analysis of the deposited data

How the results depend on the processing

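With TMM and the filter kept and 1 choice changed at a time, 17 falls among tRNA features became 10 with assigned totals, 1 with all aligned reads, 19 with DESeq2, 44 of 113 without a filter, 10 of 23 with a minimum count of 30 and 9 of 23 after thinning to the smallest library. Rises stayed at 0 except with aligned reads, where there were 14. Of all tested features, 337 of 6207 were lower and 479 higher without a filter. With a minimum count of 30, 76 of 543 were lower and 100 higher. After thinning, 67 of 583 were lower and 84 higher. Without 1 library at a time the falls ran from 13 to 19 and the rises from 0 to 0. Over all tested features the falls then ran from 147 of 2263, without the second 0h library, to 235 of 1844, without the third 24h library. The rises ran from 110 of 2263, without the second 0h library, to 204 of 1663, without the second 24h library. Without 24h libraries 1, 2 and 3 in turn, 8, 5 and 3 of the 17 calls were lost; without 0h libraries 1, 2 and 3, 6, 8 and 5 were lost. SPCTRNAGLY.12 was tested in 3 of these 6 fits. For the tRNA synthesis, charging and processing genes, 4 falls became 2 with assigned totals, 0 with aligned reads, 7 with DESeq2, 0 with a minimum count of 30, 0 after thinning, and 2 to 6 without 1 library; 2 rises became 4 with assigned totals, 31 with aligned reads, 4 without a filter, 0 with a minimum count of 30, 0 after thinning, and 0 to 2 without 1 library. Fewer features were tested with the stricter minimum and after thinning. DESeq2 gave no adjusted p for SPATRNATHR.03 and SPBTRNAGLY.05.

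With aligned reads, which moved the median of all tested features to 3.55, the log2 change turned positive for SPATRNACYS.02 (0.40), SPATRNALEU.01 (1.37), SPATRNAALA.06 (1.21), SPBTRNAGLY.09 (1.81), SPBTRNATHR.07 (2.22), SPBTRNAPHE.03 (1.13), SPBTRNAARG.05 (2.097), SPBTRNATYR.04 (1.33), SPATRNAPRO.02 (1.00), SPCTRNAPHE.05 (1.59), SPATRNAILE.02 (1.80), SPCTRNAASP.08 (2.27), SPATRNAVAL.01 (1.43), SPBTRNAPRO.08 (1.28), SPATRNASER.01 (0.28), SPATRNATHR.03 (0.40), SPBTRNATHR.06 (2.29), SPBTRNAMET.04 (1.61), SPATRNATHR.04 (1.58), SPCTRNAARG.08 (2.78), SPBTRNAGLY.05 (0.49), SPBTRNAASN.04 (1.17), SPBTRNAGLN.01 (2.65), SPBTRNAGLY.04 (2.28), SPBTRNAARG.04 (3.29) and SPCTRNAARG.10 (3.20), and for pus2 (0.22), pus4 (0.62), gta1 (1.99), sfc4 (2.51), wrs1 (2.08), SPBC24C6.03 (1.75), rar1 (2.57) and nrs1 (2.03). The sign of other small changes also turned: SPBTRNAARG.04 was 0.51 with assigned totals and 0.15 without a filter, SPCTRNAARG.10 was 0.38 with assigned totals, and SPATRNALYS.01 was -0.0088 after thinning. Without 1 library at a time the log2 change ran from -3.72 to 0.12 for SPATRNATHR.03, from -2.19 to 0.085 for SPATRNATHR.04, from -3.68 to 0.51 for SPBTRNAGLY.05, from -4.13 to 0.99 for SPBTRNAGLY.04, from -0.085 to 0.61 for SPATRNALYS.01, from -0.37 to 0.0045 for SPBTRNAARG.04 and from -2.06 to 0.11 for SPCTRNAARG.10. The cause was not tested.

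The difference in the nuclear tRNA share of assigned reads, 24h minus 0h, was -1.92 percentage points. It was -5.90 without the pericentromeric noncoding RNAs, a step that raised the 0h shares far more than the 24h shares. With aligned reads as the denominator it was 1154 per 1000000. It was -3.19 percentage points from pooled counts, and from -3.07 to -0.55 without 1 library.

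Libraries of both groups carry the numbers 1 to 3. Deviations from the group means correlated at 0.0612, 0.151 and 0.175 between same-numbered libraries over 1716 features, so not every pair passed 0.1 and the numbers were not taken to pair the samples. Each library correlated best with its own number, a hint from the data and not the design. With the number as a block, 25 tRNA features were lower and 0 higher, 7 of the 23 tested mitochondrial tRNA features were lower, and 7 tRNA synthesis, charging and processing genes were lower, against 15.8% lower and 16.3% higher of all tested features.

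Depth limits the members outside the test: 48 had 1 to 10 reads in all 6 libraries together, and a count of 0 in the smallest nuclear tRNA total allows a share of up to 0.164% of nuclear tRNA reads. Reads set aside for low mapping quality cannot be recovered here.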
